A study of Mus musculus with 7 samples.

Results

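Annexins are proteins that bind negatively charged phospholipids when calcium rises, through a conserved core of annexin repeats, and each has an N-terminal tail of its own that binds partners such as S100 proteins. Their transcripts were measured on Affymetrix arrays with RNA of whole testis, from mice aged 15 to 20 weeks: 3 arrays of the Phf13 knockout and 4 of the wild type. Phf13 is a chromatin protein that reads methylated histone H3 through its PHD finger. The labels give no strain, knockout design or age of single mice and do not say that the arrays are separate animals, so each p-value rests on the spread among arrays, which may be partly technical. Of 10 annexin genes (Anxa1 to Anxa9 and Anxa11), 9 had a probe set with 1 gene symbol, out of 18194 genes tested. The brightest probe set on average over the 7 arrays stands for each gene. The family was selected on its measured log2 differences in this same contrast of knockout and wild type, so the members' counts and p-values describe these arrays and are no independent evidence. The only probe set for Anxa11, whose product binds S100a6 and Pdcd6, carries 3 symbols, and Anxa11 therefore has no value here.

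In somatic tissues annexins act in membrane repair, vesicle traffic, plasminogen activation at the cell surface and the handling of dying cells. In the testis the supporting Sertoli cells take up large numbers of apoptotic germ cells and residual bodies, and phosphatidylserine on the outer membrane of those cells is the lipid that annexin A5 binds. None of the 10 genes lies on chromosome 4, which carries Phf13 (RefSeq, GRCm38.p6). Xkr8, Abca1, Cpne3 and Chmp5, named below from related gene lists, do lie on it. Whether sharing the chromosome of Phf13 bears on their values was not tested.

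The arrays held log2 signals with medians between 5.01 and 5.08. Phf13 itself had log2 signals of 6.04, 5.83 and 5.71 in the knockout arrays, against 8.66, 8.64, 8.73 and 8.54 in the wild type arrays, a log2 fold change of −2.78 (SE 0.09, limma adjusted p = 8.76e-06). Germ cell genes of the testis were bright: the summed linear signal of 14 elongating spermatid genes was 90574 to 91801 in knockout and 93548 to 99394 in wild type arrays. Over all genes, 1651 rose (9.07%) and 1283 fell (7.05%) at a limma adjusted p of 0.05, and with each array centred on its median 1635 rose and 2042 fell. The median log2 fold change of all genes was −0.045. Each array title starts with a number that the labels leave unexplained, and arrays alike in its first 4 digits form the 3 title-number groups used here. The first holds knockout 1 and wild type 1, the next knockout 2 beside wild type 2 and 3, and the last knockout 3 and wild type 4.

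Knockout 2, and less so wild type 3, stood apart in a few genes of the epididymis and of epithelia (Adam7, Krt18 and, in knockout 2, Krt19), which were picked after their values were seen. Adam7, an epididymal metalloprotease gene, had log2 signals of 3.49, 7.07 and 3.02 in knockout and 3.39, 3.10, 5.20 and 3.22 in wild type arrays. The keratin gene Krt18 had 3.58, 6.21 and 3.74 in knockout and 3.74, 3.55, 4.29 and 3.34 in wild type arrays. Krt19 had 5.79 in knockout 2 and 3.88 to 4.22 in the other 6 arrays. Among 18 measured genes of the excurrent ducts (epididymis, efferent duct, rete testis), 1 fell and the other 17 missed the threshold. Their summed linear signal was 1033, 1439 and 1077 in knockout arrays, against 1265, 1346, 1306 and 1458 in wild type arrays. On that sum knockout 2 was the highest knockout array but lay under wild type 4, and wild type 3 did not stand apart. The annexin values are therefore given with and without these arrays, and the part of such tissue in them was not tested.

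Anxa1, Anxa4, Anxa5, Anxa6 and Anxa9 had higher signals in every knockout array than in any wild type array and passed the test. They are 5 of the 9 genes (55.6%); 0 fell and 4 missed the threshold. Over all genes 9.07% rose, and nothing is read from the gap because the family was selected on this contrast. The median log2 fold change of the 9 was 0.49, and 8 had a positive fold change, where 40.1% of all genes did. Arrays of the genotypes did not overlap, with knockout higher, for 12.8% of all genes. The rises were between 1.26-fold (Anxa6) and 1.72-fold (Anxa4). In bulk tissue, more cells of a type and more RNA per cell cannot be told apart.

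**Figure D1:**
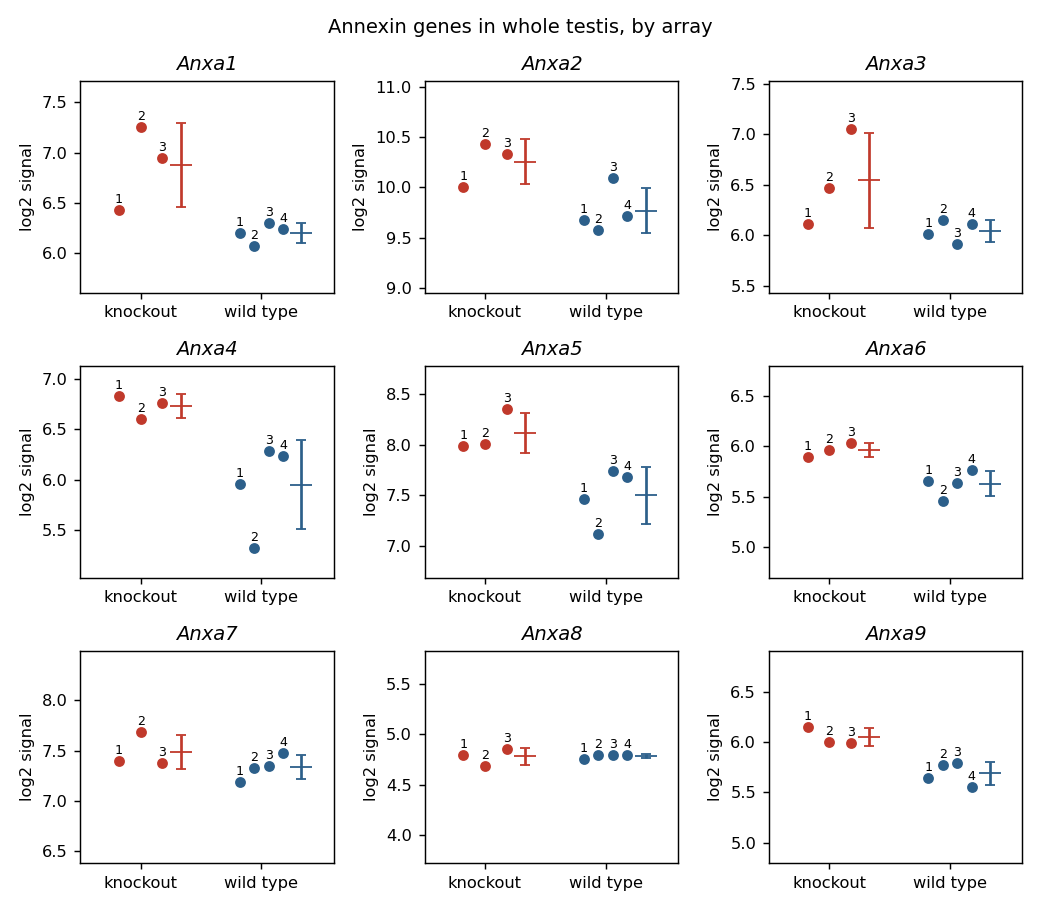
Log2 signal of the 9 measured annexin genes in each array (points, with the replicate number above each), knockout in red and wild type in blue, with the mean and SD beside each group; every vertical axis spans the same range. Knockout and wild type arrays do not overlap for Anxa1, Anxa4, Anxa5, Anxa6 and Anxa9.

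Anxa1 encodes the glucocorticoid-induced annexin that restrains cytosolic phospholipase A2 and is a ligand of formyl peptide receptors. It had log2 signals of 6.43, 7.25 and 6.95 in knockout arrays, against 6.20, 6.07, 6.30 and 6.24 in wild type arrays. The groups did not overlap, but knockout 1 lay close to the wild type arrays and the knockout spread was wide (6.88 ± 0.41, SD, n = 3, against 6.20 ± 0.10, SD, n = 4). Anxa1 rose by 0.67 (SE 0.17, adjusted p = 0.0325 by limma), 1.60-fold. Within the title-number groups the difference was 0.23, 1.06 and 0.71. Knockout 2 was the highest array for Anxa1. Without it the log2 fold change was 0.49 (limma adjusted p = 0.0663), and without both it and wild type 3 it was 0.52 (adjusted p = 0.0952).

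Anxa2 encodes the partner of S100a10 in a heterotetramer that links membranes to actin and binds plasminogen at the cell surface. Its log2 signals were 10, 10.43 and 10.33 in knockout arrays and 9.68, 9.58, 10.09 and 9.72 in wild type arrays. Wild type 3 lay above knockout 1, so the groups overlapped. With a difference of 0.49 on the log2 scale (SE 0.14, 95% interval 0.16 to 0.81) Anxa2 did not pass limma's test (adjusted p = 0.0506). It was 0.59 without wild type 3 (adjusted p = 0.0236), 0.40 without knockout 2 (adjusted p = 0.137) and 0.51 without both (adjusted p = 0.0533). It passed also with quantile normalization (0.56, adjusted p = 0.0301), median centring (0.44, adjusted p = 0.0407) and trended, robust variances (0.49, adjusted p = 0.0317).

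Anxa4, an annexin abundant in epithelia, had the largest difference of the 9. It had log2 signals of 6.83, 6.60 and 6.76 in knockout arrays, against 5.96, 5.32, 6.28 and 6.23 in wild type arrays. The knockout arrays lay close together and all above wild type, whose spread was set by the low wild type 2 (6.73 ± 0.12, SD, n = 3, against 5.95 ± 0.44, SD, n = 4). Anxa4 rose by 0.78 (SE 0.21, limma adjusted p = 0.0412), and the call was lost when title-number group entered the fit as a block (0.74, adjusted p = 0.0737). Within those groups the difference was 0.87, 0.80 and 0.53, and without knockout 2 and wild type 3 it was 0.96 (adjusted p = 0.0740).

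Anxa5 encodes the annexin that coats phosphatidylserine on membranes and is widely used as a stain for apoptotic cells. Its log2 signals were 7.99, 8.01 and 8.35 in knockout arrays, against 7.46, 7.11, 7.74 and 7.68 in wild type arrays. Every knockout array exceeded every wild type array, and wild type 2 was again the lowest. Anxa5 rose by 0.62 (SE 0.16, limma adjusted p = 0.0347), 1.54-fold, and by title-number group it differed by 0.53, 0.58 and 0.67. The difference was as large without knockout 2 and wild type 3 (0.75, adjusted p = 0.0664), though no longer past the threshold in those 5 arrays.

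Anxa6, the annexin with a duplicated core, which binds cholesterol-rich endosomal membranes, had log2 signals of 5.89, 5.96 and 6.03 in knockout arrays and 5.66, 5.46, 5.64 and 5.76 in wild type arrays. It rose by 0.33 (SE 0.08, limma adjusted p = 0.0311), with differences of 0.23, 0.41 and 0.27 inside the title-number groups. Anxa9 encodes a divergent annexin whose repeats lack the usual calcium-binding residues. It had log2 signals of 6.15, 6.0 and 5.99 in knockout arrays and 5.64, 5.77, 5.79 and 5.55 in wild type arrays. Its knockout arrays were tightly grouped above all wild type arrays, and it rose by 0.36 (SE 0.08, limma adjusted p = 0.0238), with 0.51, 0.22 and 0.44 within the title-number groups. Without knockout 2 and wild type 3 the difference was 0.33 for Anxa6 (adjusted p = 0.108) and 0.42 for Anxa9 (adjusted p = 0.0545).

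Anxa3, which is abundant in neutrophils, had log2 signals of 6.11, 6.47 and 7.05 in knockout arrays and 6.01, 6.15, 5.91 and 6.11 in wild type arrays. Knockout 3 was high and knockout 1 equalled wild type 4. Its difference of 0.50 (SE 0.19) missed the threshold (limma adjusted p = 0.107), and it was 0.25 without knockout 3 (adjusted p = 0.235). Anxa7, also called synexin, promotes the fusion of secretory granules in adrenal cells. Its log2 signals overlapped, at 7.40, 7.68 and 7.38 in knockout and 7.19, 7.33, 7.35 and 7.48 in wild type arrays (log2 fold change 0.15, SE 0.10, limma adjusted p = 0.314, 95% interval −0.07 to 0.37). Anxa8, an annexin of late endosomes, had 4.80, 4.69 and 4.86 in knockout and 4.76, 4.80, 4.80 and 4.80 in wild type arrays. No detection call was used, and these signals lay under the array medians; its log2 fold change of −0.01 (95% interval −0.15 to 0.13; 0.01 with quantile normalization) is from a dim probe set.

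**Figure D2:**
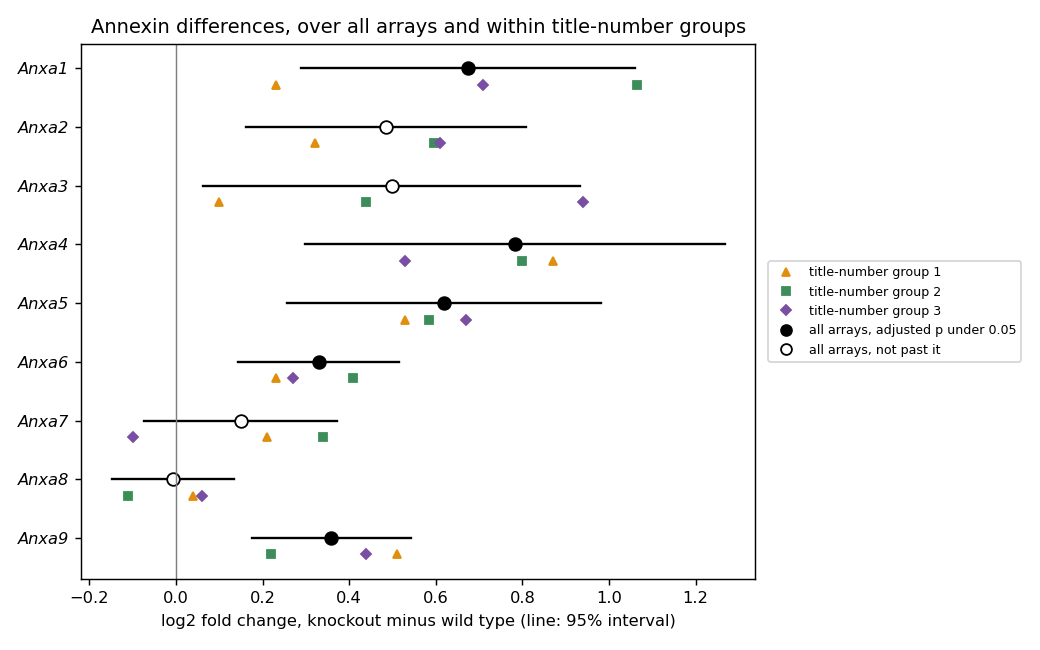
Log2 fold change (knockout minus wild type) of each annexin gene over all 7 arrays (circles, filled where the limma adjusted p is under 0.05) with its 95% interval (line), and within each title-number group (coloured symbols). Anxa1 to Anxa6 and Anxa9 are above 0 in all 3 title-number groups, while Anxa7 and Anxa8 have values on both sides of 0.

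The calls rested on few arrays. The number of annexin genes past the threshold was 2 without knockout 1, 1 without knockout 2, 0 without knockout 3, 0 without wild type 1, 2 without wild type 2, 4 without wild type 3 and 4 without wild type 4. With limma's test 6 of the 9 had an unadjusted p under 0.05 both without knockout 3 and without wild type 1. Of all 18194 genes, 4799 did without knockout 3 and 5055 without wild type 1. Nothing is read from the gap, because the family was selected on this contrast. Over all genes 2934 passed with all arrays. Leaving out knockout 1, 2 or 3 gave 996, 2500 and 175. Leaving out wild type 1, 2, 3 or 4 gave 741, 1364, 2574 and 2247. Without knockout 2 the annexin count thus went from 5 to 1, while the count over all genes went from 2934 to 2500. The log2 fold changes were then 0.85 for Anxa4, 0.67 for Anxa5, 0.33 for Anxa6 and 0.38 for Anxa9. With all arrays they were 0.78, 0.62, 0.33 and 0.36. For Anxa1 the value went from 0.67 to 0.49. Anxa9 still passed, and the limma adjusted p of Anxa1, Anxa4, Anxa5 and Anxa6 lay between 0.0588 and 0.0702. Wild type 2 was the lowest wild type array for 5 of the 9 annexin genes and wild type 3 the highest, or level with the highest, for 6. The median deviation of the 9 genes from their wild type means was −0.13 in wild type 2 and 0.10 in wild type 3, where over all genes it was −0.01 in wild type 2 and 0.01 in wild type 3.

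The 9 genes had 20 single-symbol probe sets, and 6 of them had more than 1. The probe sets of Anxa4 gave the same direction: a second one, with log2 signals of 6.53, 6.59 and 6.44 in knockout and 5.88, 5.36, 5.99 and 6.15 in wild type arrays, had a log2 fold change of 0.68 (SE 0.17, limma adjusted p = 0.0372 over all probe sets). Another had 0.45 (adjusted p = 0.0666). Of the 11 probe sets that did not represent their gene, this second Anxa4 probe set alone passed, where 11.4% of all 34958 probe sets did. The dimmer probe sets of Anxa1 (−0.13) and Anxa2 (0.23 and −0.20) and 3 of Anxa6 (0.15, 0.08 and −0.14) did not pass either; the values of −0.13, −0.20 and −0.14 came from the dimmest probe sets of their genes. RefSeq also lists an Anxa2-related pseudogene, and whether any Anxa2 probe set reads it was not tested.

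**Figure D3:**
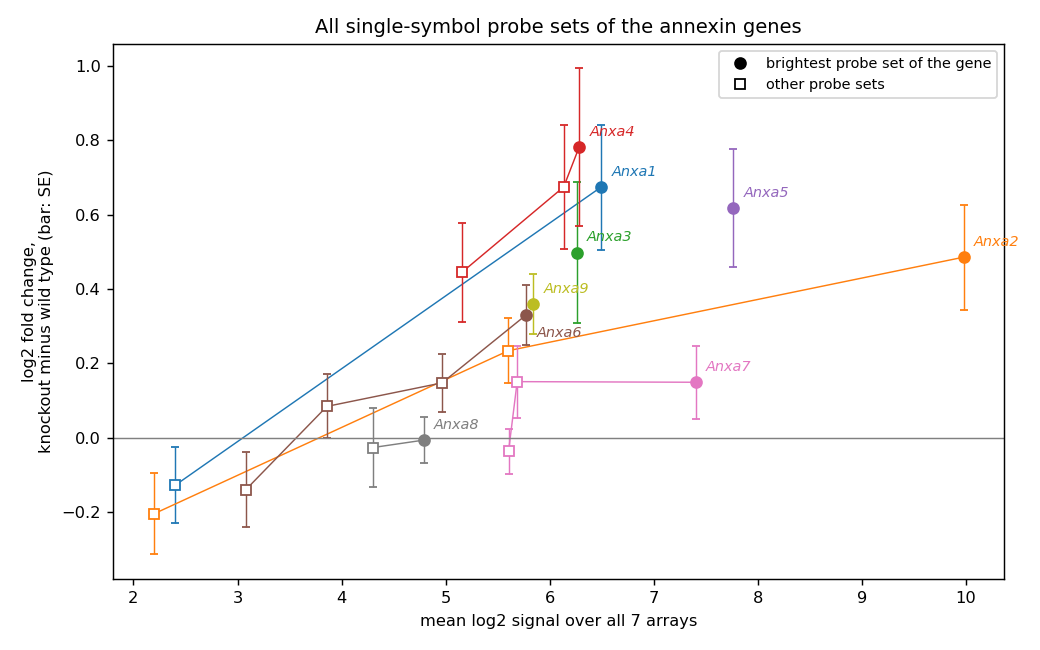
Log2 fold change (knockout minus wild type, bar: SE) of the 20 single-symbol probe sets of the annexin genes against their mean log2 signal over the 7 arrays; filled circles are the brightest probe set of each gene and open squares the others, joined by gene. The lowest fold changes belong to the dimmest probe sets of Anxa2, Anxa6 and Anxa1, at −0.20, −0.14 and −0.13.

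The promoters of Anxa1 and Anxa4, the genes that rose the most, are shown so that their core elements can be read, with Anxa2 for comparison. RefSeq start sites (GRCm38.p6) were given for 8 of the 10 genes, 11 windows in all, each from 250 bases before to 50 after the start. The windows shown are chr19:20390622-20390921 on the minus strand for Anxa1, chr9:69453433-69453732 on the plus strand for Anxa2 and chr6:86793535-86793834 on the minus strand for Anxa4 (its first start site). Capitals mark the TATA box (searched as TATAAA), the CCAAT box (searched under that spelling) and the GC box (searched as GGGCGG), on either strand.
Anxa1: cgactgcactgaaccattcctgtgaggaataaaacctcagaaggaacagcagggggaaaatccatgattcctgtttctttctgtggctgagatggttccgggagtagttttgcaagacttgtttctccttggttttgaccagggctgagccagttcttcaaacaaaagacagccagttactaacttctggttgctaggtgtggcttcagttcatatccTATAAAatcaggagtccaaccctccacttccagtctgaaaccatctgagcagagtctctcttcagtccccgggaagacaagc
Anxa2: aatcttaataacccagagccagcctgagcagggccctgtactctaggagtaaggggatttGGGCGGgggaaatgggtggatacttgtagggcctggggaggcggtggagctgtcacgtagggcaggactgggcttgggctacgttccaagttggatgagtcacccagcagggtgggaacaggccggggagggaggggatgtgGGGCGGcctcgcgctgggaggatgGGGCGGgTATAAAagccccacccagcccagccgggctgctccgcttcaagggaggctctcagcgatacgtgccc
Anxa4: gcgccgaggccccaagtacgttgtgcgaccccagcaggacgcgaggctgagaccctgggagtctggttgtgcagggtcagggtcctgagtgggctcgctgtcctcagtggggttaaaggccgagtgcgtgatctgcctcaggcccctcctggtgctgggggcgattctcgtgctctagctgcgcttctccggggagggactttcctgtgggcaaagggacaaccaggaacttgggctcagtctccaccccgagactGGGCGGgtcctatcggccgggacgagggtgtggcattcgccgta
TATAAA was found in the windows of Anxa1, 32 bases before the start, and Anxa2, 17 bases before it, so in 2 of 11, against 13.6% of 32851 RefSeq windows. GGGCGG, the GC box, was in 5 of 11 windows (35.7% of all), with 3 copies in Anxa2 and 1 in Anxa4, 7 bases after the start. The windows of Anxa5 and Anxa9 held none of the 3 motifs, and CCAAT was in 0 of 11 (37.4% of all). The AP-1 motif TGANTCA was in 1, that of Anxa2 (7.81% of all), and the glucocorticoid receptor half-site AGAACA in 1, the second start of Anxa4 (19% of all). None of these motifs overlapped another in the annexin windows shown. Anxa3 and Anxa6 had no window in the table, so 4 of the 5 genes that rose were searched, and no searched motif was in the windows of all 4.

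Proteins that bind annexins directly include S100 proteins and scaffolds. Of 12 measured partners 5 rose and 0 fell, and 7 missed the threshold (all genes: 9.07% rose), with a median log2 fold change of 0.32 (0.12, 0.29 and 0.40 within the title-number groups). S100a10, the partner of annexin A2, had log2 signals of 7.44, 7.60 and 7.44 in knockout arrays and 6.76, 6.92, 7.12 and 6.95 in wild type arrays, and it rose by 0.56 (SE 0.09, limma adjusted p = 0.0128). All its knockout arrays lay above wild type, in contrast to the overlap of Anxa2. Ahnak, a giant scaffold recruited by annexin A2 and S100a10, had 7.07, 6.82 and 7.01 in knockout and 6.41, 6.0, 6.43 and 6.28 in wild type arrays, and rose by 0.69 (SE 0.11, adjusted p = 0.0130). Sri, which encodes the annexin A7 partner sorcin, had 6.28, 6.48 and 6.67 in knockout and 5.60, 5.50, 6.02 and 6.01 in wild type arrays, and rose by 0.69 (SE 0.15, adjusted p = 0.0229; 0.77 and adjusted p = 0.0614 without knockout 2 and wild type 3). Pdcd6, a calcium-binding partner of annexins A7 and A11, rose by 0.41 (SE 0.07). S100a4, which binds annexin A2, rose by 0.59 (SE 0.07) from signals below the array medians. With probe sets averaged by gene the log2 fold change was 0.44 for S100a10, 0.17 for Ahnak and 0.40 for Sri. Ahnak did not pass there (limma adjusted p = 0.129). Of the members that did not pass, S100a6 had a log2 fold change of 0.51 (adjusted p = 0.0529), S100a1 of 0.23, S100b of 0.18, Pdcd6ip of 0.15, Slc39a14 of 0.03 (−0.01 with quantile normalization), Stxbp2 of −0.06 and Ahnak2 of −0.07. The only probe set of S100a11, the annexin A1 partner, carries several symbols and was not used.

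Genes around the known actions of annexin A1 were mixed. Of 14 genes of the glucocorticoid response, 4 rose and 0 fell, where 9.07% of all genes rose and 7.05% fell, and 10 did not pass (median 0.26). Sgk1, a kinase gene induced by glucocorticoids, rose by 0.88 (SE 0.21), the NF-kB inhibitor gene Nfkbia by 0.78 (SE 0.15), the receptor co-chaperone gene Fkbp5 by 0.57 (SE 0.10) and Tsc22d3, also called Gilz, by 0.35 (SE 0.09), with limma adjusted p-values of 0.0135 to 0.0327. Sgk1 did not pass without knockout 2 and wild type 3 (0.97, adjusted p = 0.0834), nor Tsc22d3 with title-number group as a block (0.33, adjusted p = 0.0576). Fkbp5 had log2 signals of 8.64, 8.63 and 8.74 in knockout arrays and 8.09, 7.88, 8.32 and 8.09 in wild type arrays, with no overlap. With probe sets averaged by gene the log2 fold change was 0.65 for Nfkbia, 0.26 for Fkbp5 and 0.14 for Tsc22d3. Of 3 measured formyl peptide receptor genes 0 passed limma's test, and 0 had an unadjusted p under 0.05: Fpr2 had a log2 fold change of −0.06, Fpr-rs3 of −0.16 and Fpr-rs4 of 0.01 (−0.04 with median centring), all with signals below the array medians. Of 20 genes of phospholipase A2 and arachidonate metabolism, 2 rose (10%, near the 9.07% of all genes), 0 fell and 18 did not pass (median −0.01). Pla2g4a, the cytosolic phospholipase A2 that annexin A1 restrains, had 5.70, 5.95 and 6.08 in knockout and 4.65, 4.60, 4.85 and 5.08 in wild type arrays and rose by 1.11 (SE 0.13, adjusted p = 0.00972). Ptgds, which makes prostaglandin D2, rose by 0.91 (SE 0.20). Ptgs2, the inducible cyclooxygenase gene, picked after its values were seen, had 6.54 in knockout 2 and 2.27 to 2.44 in the other 6 arrays.

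A list joined genes of phosphatidylserine exposure, on which annexin A5 reports, with genes of apoptotic cell uptake. The genes that rose were all of uptake. The list was not divided in advance and few of its genes act in exposure, so nothing is read from that split. Of the 30 genes 13 rose and 1 fell (all genes: 9.07% and 7.05%), while 16 missed the threshold (median 0.14, and 0.28, 0.11 and 0.18 within the title-number groups). Mertk, the uptake receptor kinase of Sertoli cells and macrophages, had log2 signals of 6.90, 6.78 and 6.94 in knockout arrays and 5.95, 5.78, 5.91 and 5.88 in wild type arrays. All knockout arrays were well above wild type, and Mertk rose by 0.99 (SE 0.07, limma adjusted p = 0.00140). Its bridging ligands rose too, Gas6 by 0.52 (SE 0.08) and Pros1 by 0.58 (SE 0.09), as did Mfge8, the bridge to integrins, by 0.52 (SE 0.07). The GTPase gene Rac1 rose by 0.69 (SE 0.10) and the lipid exporter gene Abca1 by 0.72 (SE 0.14). With probe sets averaged by gene the log2 fold change was 0.21 for Gas6, 0.34 for Rac1 and 0.51 for Abca1. The gene that fell, named after its values were seen, was Xkr8, a phosphatidylserine scramblase gene, at 8.70, 8.91 and 8.60 in knockout and 9.25, 9.16, 9.14 and 9.05 in wild type arrays (−0.41, SE 0.09, adjusted p = 0.0204). Xkr8 and Abca1 lie on chromosome 4, as Phf13 does, and the part of this in their differences was not tested. Of 8 genes listed under plasminogen activation, the cell surface reaction of annexin A2, 0 passed limma's adjusted test. An unadjusted limma p under 0.05 was found for 4 of them, and for 6146 of all 18194 genes. Of these 4, named after their values were seen, Plgrkt was higher in knockout (0.48). Plau (−0.24) and Plaur (−0.16), both with signals below the array medians, were lower. Hmmr (−0.17), a hyaluronan receptor gene that is not one of plasminogen activation, was lower too. Among other calcium and membrane binding or repair proteins with C2 domains, caveolin or calpain, 5 of 24 rose (20.8%, all genes 9.07%), 1 fell and 18 did not pass (median 0.02). Over the 130 measured genes of all related lists 30 rose and 4 fell; without knockout 2 and wild type 3 these counts were 24 and 4, and without knockout 3 they were 3 and 0.

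**Figure D4:**
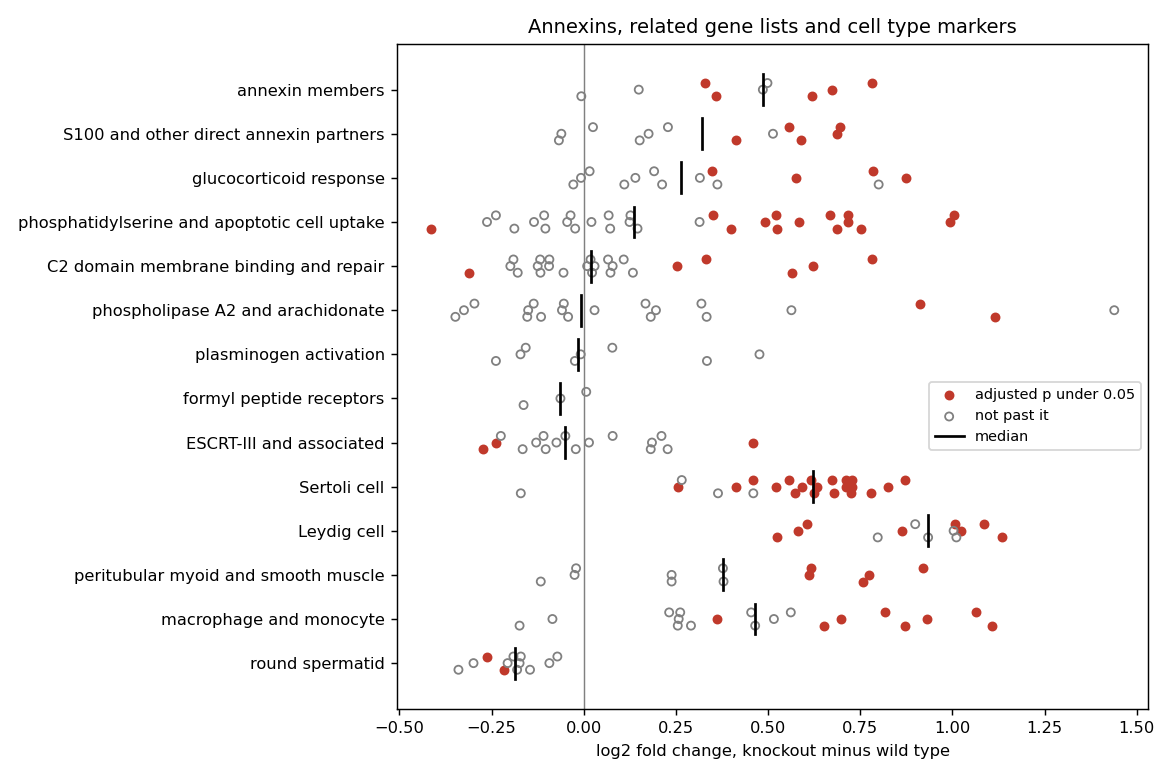
Log2 fold change (knockout minus wild type) of every measured gene of the annexin family, of related gene lists and of cell type marker lists; red points passed the limma adjusted p of 0.05, open points did not, and black bars are medians. The annexin median of 0.49 lies above those of the partner (0.32) and uptake (0.14) lists and below those of Sertoli (0.62) and Leydig (0.93) markers. Nothing is read from this order, because the annexin family was selected on this contrast.

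Most Sertoli and Leydig cell markers, and a part of the peritubular and macrophage markers, rose in the knockout arrays, while 0 endothelial and 0 lymphocyte markers rose. Over all genes 9.07% rose and 7.05% fell. The lists were not equally bright. Of Sertoli markers 20 of 24, and of Leydig markers 13 of 13, had a mean above the median of tested genes. Of endothelial markers 3 of 15 did, and of lymphocyte markers 0 of 12. Of 24 Sertoli cell markers 20 rose and 0 fell, and their summed linear signal was 29097 to 32304 in knockout and 17500.0 to 22750.2 in wild type arrays. Of 13 Leydig cell markers 8 rose and 0 fell (11662 to 14242 in knockout, 5595 to 8296 in wild type). Of 12 genes of peritubular and smooth muscle cells 5 rose and 0 fell (3609 to 3905 in knockout, 2608 to 2966 in wild type), and of 19 macrophage genes 8 rose and 0 fell (4107 to 5366 in knockout, 3765 to 3987 in wild type). The summed signal of the 9 annexin genes was 1874 to 2332 in knockout and 1369 to 1817 in wild type arrays. Of 12 round spermatid genes 0 rose and 2 fell (14760.1 to 14935 in knockout, 15729.8 to 17999.9 in wild type). Of other lists, 3 of 13 spermatogonial genes rose, 3 of 13 pachytene and 4 of 14 elongating spermatid genes fell, 1 of 15 endothelial genes fell and 0 of 12 lymphocyte genes passed. The part of these cells in the annexin differences was not tested.

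The genes whose array pattern came closest to each risen annexin were sought among 8556 named genes of at least median signal, by the root mean square difference of centred log2 signals over the 7 arrays. They were Nucb2 (0.09) and Npc2 (0.11) for Anxa1, Ddx3x (0.10) and Ptgds (0.10) for Anxa4, Ifnar2 and Slc7a1 (both 0.04) for Anxa5, Fam76b and Gpcpd1 (both 0.03) for Anxa6, and Tpm1 (0.04) and Slc25a1 (0.06) for Anxa9. Nucb2 encodes a calcium-binding protein. It had log2 signals of 7.65, 8.19 and 8.03 in knockout arrays and 7.32, 7.23, 7.49 and 7.47 in wild type arrays. Knockout 2 was the highest knockout array, as for Anxa1, which follows from the choice of Nucb2 by its pattern. The closest genes differed from annexin to annexin, and none was shared.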

How the data were processed

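The authors deposited 1 log2 signal per probe set and array, in a table made with Affymetrix Expression Console 1.4.1, per the submitters' processing notes; the summarisation, background correction and normalization behind the log2 values are not given in the sources used here. No scanner files were used, and no depth applies to arrays, whose number limits the precision. Of 45101 probe sets, 34958 had 1 gene symbol in the platform annotation, 932 had several and 9211 had none. The brightest single-symbol probe set on average stood for each of 18194 genes. Knockout (n = 3) was compared with wild type (n = 4) by a linear model per gene with moderated variances (limma 3.58.1 under R 4.3.3, two-sided, Benjamini-Hochberg over all genes, threshold 0.05), with the deposited values as they are. The fit was also run on simulated data of 18194 genes, with 200 changed genes and independent normal errors. It recovered 74% of genes raised by 0.5 on the log2 scale and 100% of those raised by 1. Of genes lowered by 0.5 it recovered 74%, and of those lowered by 1 96%, with 11 false calls. In the real arrays 16.1% of genes passed and errors were shared within title-number groups, so these rates need not hold for them. Members and gene lists were chosen with earlier results of these data known. The text names every annexin and every measured gene of the partner list and of the formyl peptide receptors. It names up to 6 genes past the threshold per related list by smallest p. The 2 genes nearest in pattern to each annexin that rose are named too. Other genes are said to be picked after their values were seen. Arrays of the same title-number group deviated together from their genotype means (r across genes of 0.103 to 0.319), so fits with that group as a block are given where they change a call. Motifs were searched on both strands of RefSeq windows (GRCm38.p6). Alternatives were quantile normalization, median centring, a filter on dim genes, other probe set rules, trended variances, blocks and left-out arrays.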

Additional observations from a re-analysis of the deposited data

Results flagged for a closer look

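In 96 wild type groups of 4 arrays (the named genes), 4 held an array whose gap to its nearest neighbour exceeded Dixon's critical value of 0.829 of the range, where chance gives about 1 in 20. Anxa8 had a log2 signal of 4.76 in wild type 1 and 4.80 in the other wild type arrays. Stxbp2, which encodes a protein of secretory granule fusion, had 8.16 in wild type 1 and 8.09 in the others. Mfge8 had 8.53 in wild type 1 and 8.34 in the others. Cd3d, a T cell gene, had 5.79 in wild type 2 and 5.54 to 5.57 in the others. Knockout, with 3 arrays, was not tested in this way.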

How the results depend on the processing

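The number of genes past the threshold, 2934, lay between 175 and 2574 with 1 array left out, at 4 without both knockout 3 and wild type 4, and at 1643 without both knockout 2 and wild type 3, a setting chosen after seeing the data. For the annexins, 5 of 9 passed; 3 did without genes below the median signal (4 of the 9 were then tested), 3 with probe sets averaged by gene, 0 without knockout 3 and wild type 4, 0 without knockout 2 and wild type 3, and 0 to 4 with 1 array left out. With the replicate number as a block 3 annexins passed; the numbers share no stated origin, arrays with the same number had deviations with r of 0.182, 0.103 and −0.143, and the block moved the count of genes to 2294. Of 130 genes of related lists 34 passed, 3 to 31 with 1 array left out and 0 without knockout 3 and wild type 4. The settings that leave out arrays or dim genes test fewer of them; why probe set averaging and the block move the counts was not tested. For the log2 fold changes of named genes, 1179 values under the alternatives kept their direction and side of the threshold, 383 no longer passed, 24 newly passed and 17 turned sign. The sign of some differences near 0 turned, and the cause was not tested. With quantile normalization Anxa8 was at 0.0065 and Slc39a14 at −0.0090. With median centring Slc39a14 was at −0.022 and Fpr-rs4 at −0.041. Slc39a14 was at −0.038 with probe sets averaged and −0.053 without knockout 3 and wild type 4. Without knockout 2 and wild type 3, Anxa8 was at 0.043, Anxa13 at −0.29 and Fpr-rs4 at −0.023. With 1 array left out, Anxa8 ranged from −0.045 to 0.040, Anxa13 from −0.24 to 0.71, Slc39a14 from −0.045 to 0.070, Fpr2 from −0.13 to 0.03 and Fpr-rs4 from −0.013 to 0.040.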

Other observations

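The annexins outside the 10 genes did not pass limma's test. Anxa10 had log2 signals of 2.81, 2.94 and 2.94 in knockout arrays and 2.89, 3.15, 3.27 and 2.94 in wild type arrays (log2 fold change −0.17, adjusted p = 0.279). Anxa13, an annexin of epithelia such as the gut lining, had 4.50, 6.16 and 4.27 in knockout and 4.61, 4.51, 4.47 and 4.90 in wild type arrays (0.35, SE 0.40, adjusted p = 0.558). Its only high array was knockout 2.

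Some membrane repair genes outside the annexin family passed. Of 17 genes of ESCRT-III, which pinches off damaged membrane, and its associated factors, 1 rose (5.88%), 2 fell and 14 did not pass by limma (median −0.05), where 9.07% of all genes rose and 7.05% fell. Chmp5 rose by 0.46 (SE 0.12, adjusted p = 0.0374), while Vps28, an ESCRT-I subunit, fell by 0.27 (SE 0.07, adjusted p = 0.0284) and Chmp6 fell by 0.24 (SE 0.07, adjusted p = 0.0463). Without knockout 2 and wild type 3, Chmp5 no longer passed (0.53, adjusted p = 0.0809), and with title-number group as a block Chmp6 no longer passed (−0.23, adjusted p = 0.0856). Among C2 domain and repair genes, Cav1, the caveolar coat gene, had log2 signals of 7.69, 8.01 and 7.62 in knockout and 7.01, 6.62, 7.36 and 6.98 in wild type arrays and rose by 0.78 (SE 0.17, adjusted p = 0.0212). The copine gene Cpne3 rose by 0.62 (SE 0.11, adjusted p = 0.0148) and Syt7, a calcium sensor gene of lysosome exocytosis, by 0.57 (SE 0.12, adjusted p = 0.0207). Another copine gene, Cpne8, rose by 0.33 (SE 0.09, adjusted p = 0.0374), and the calpain gene Capn2 by 0.25 (SE 0.07, adjusted p = 0.0491). Capn2 did not pass with title-number group as a block (0.25, limma adjusted p = 0.0915), and it passed in 1 of 16 alternative settings. Ehd1, an endosomal recycling gene, fell by 0.31 (SE 0.06, adjusted p = 0.0197).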
